A study of Mus musculus with 9 samples.

Results

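The genes described here are 35 mouse genes of lysosomal breakdown: glycosidases, sulfatases, lipid hydrolases and peptidases, with the activator proteins, cholesterol carriers and membrane proteins that work beside them. They were taken by name from a list of lysosomal enzymes and were grouped by the substrate class of each. Earlier results of these data were known when the genes and lists were chosen, so the counts below are descriptions. Of the 35, 34 were measured by a probe set that lists 1 gene, among 22180 genes measured in that way. The exception is Glb1, the beta-galactosidase of gangliosides and keratan sulfate, whose probe set also lists Tmppe and which stayed out of every count.

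Total RNA was profiled on 9 biotin-labelled expression arrays, 3 for each of 3 states of MSC2, a line of mesenchymal stromal cells that is 1 clone, derived from marrow of C57BL/6 mice aged 6 weeks. Undifferentiated cells were kept in alpha-MEM that lacked ascorbic acid. The other cells were taken to confluence and then held for 14 or 28 days in DMEM with 10 mM beta-glycerophosphate, 0.2 mM ascorbate phosphate, 1 mM pyruvate and the glucocorticoid dexamethasone at 0.1 µM, which together serve as osteoblastic induction. All media held 10% serum. Induction therefore cannot be told apart from medium, confluence and time, since uninduced cells held as long were not analysed here. The series text calls the 3 arrays of a group independent replicates, but nothing says that they came from separate animals, so p-values measure the spread between these arrays, which may be technical.

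Each value is a log signal whose median over the 9 arrays is 0 for every probe set, so values compare arrays and keep no level of a gene. The base was taken as log2, the scale of RMA, and every fold printed here rests on that. Where a gene is higher at both induced times, its zero point falls among the induced arrays. The SD over probe sets was 0.40 to 0.41 on undifferentiated arrays, 0.089 to 0.12 on day-14 arrays and 0.15 to 0.17 on day-28 arrays. Quantile normalization again, used below as an alternative, makes these spreads equal and so rescales each group differently. Whether a call gained or lost under it comes from that rescaling was not tested. For arrays, their number limits the precision. As a check of the label, 8 osteoblast genes were read, also chosen with earlier results of these data known. Of these, 3 rose at day 28 relative to undifferentiated cells and 1 fell. Over all genes, 20.4% rose and 19.5% fell in that comparison. Omd rose by 1.51, Pth1r by 1.03 and Alpl by 0.46, Col1a1 was at -0.39, and the rest were not called: Bglap (limma adjusted p = 0.104), Ibsp (0.805), Sp7 (0.874) and Dmp1 (0.915). Centred values cannot show whether any of these markers was absent. All 13 measured cell cycle genes were lower at day 28 than in undifferentiated cells, with a median log2 difference of -2.77.

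Lysosomes break down glycans, lipids and proteins that reach them from outside the cell or by autophagy. Most of their soluble enzymes are made in the endoplasmic reticulum, tagged with mannose 6-phosphate and carried by receptors to the acid compartment, and the sulfatases first need activation by the enzyme that Sumf1 encodes. In people, loss of one enzyme leaves its substrate to pile up, as in Fabry, Tay-Sachs or Pompe disease, and loss of the enzymes of glycosaminoglycans often deforms the skeleton. Many of these genes share a short E-box element to which the transcription factor TFEB and its relatives bind.

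Most lysosomal enzyme genes were higher in induced cells. At day 14, 30 of the 34 measured genes rose relative to undifferentiated cells and 0 fell at a limma adjusted p under 0.05, where 18.2% of all 22180 genes rose and 35.7% changed in either direction. At an unadjusted p under 0.05, 31 were higher and 1, Ids, was lower at day 14. At day 28, 29 rose and 1 fell, where 20.4% of all genes rose, 19.5% fell and 39.9% changed in either direction. The median log2 difference of the 34 genes was 0.62 at day 14 and 0.72 at day 28, against 0.0048 and 0.017 for all genes. Changes of at least 2-fold were met by 13 of the 34 genes at each time, against 2.66% of all genes at day 14 and 3.26% at day 28. Both comparisons share the undifferentiated arrays, so the second is no independent repeat of the first and their values are given side by side.

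The rise shows on every array. All 3 day-14 arrays lay above all 3 undifferentiated arrays in 30 of the 34 genes, where 22.9% of all genes did so, and in 1 gene, Ids, all lay below, where 21.9% did so and 44.8% did either. At day 28 the arrays lay above without overlap in 30 genes, against 24.2% of all genes, and below in 1, Gusb, against 22.4%, with 46.6% in either direction. The mean of the 34 centred values was between -0.74 and -0.70 on the undifferentiated arrays, between 0.054 and 0.082 on the day-14 arrays and between 0.030 and 0.059 on the day-28 arrays. Whether a gene's RNA rose in every cell or in a part of the cells cannot be told apart in such bulk samples.

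**Figure D1:**
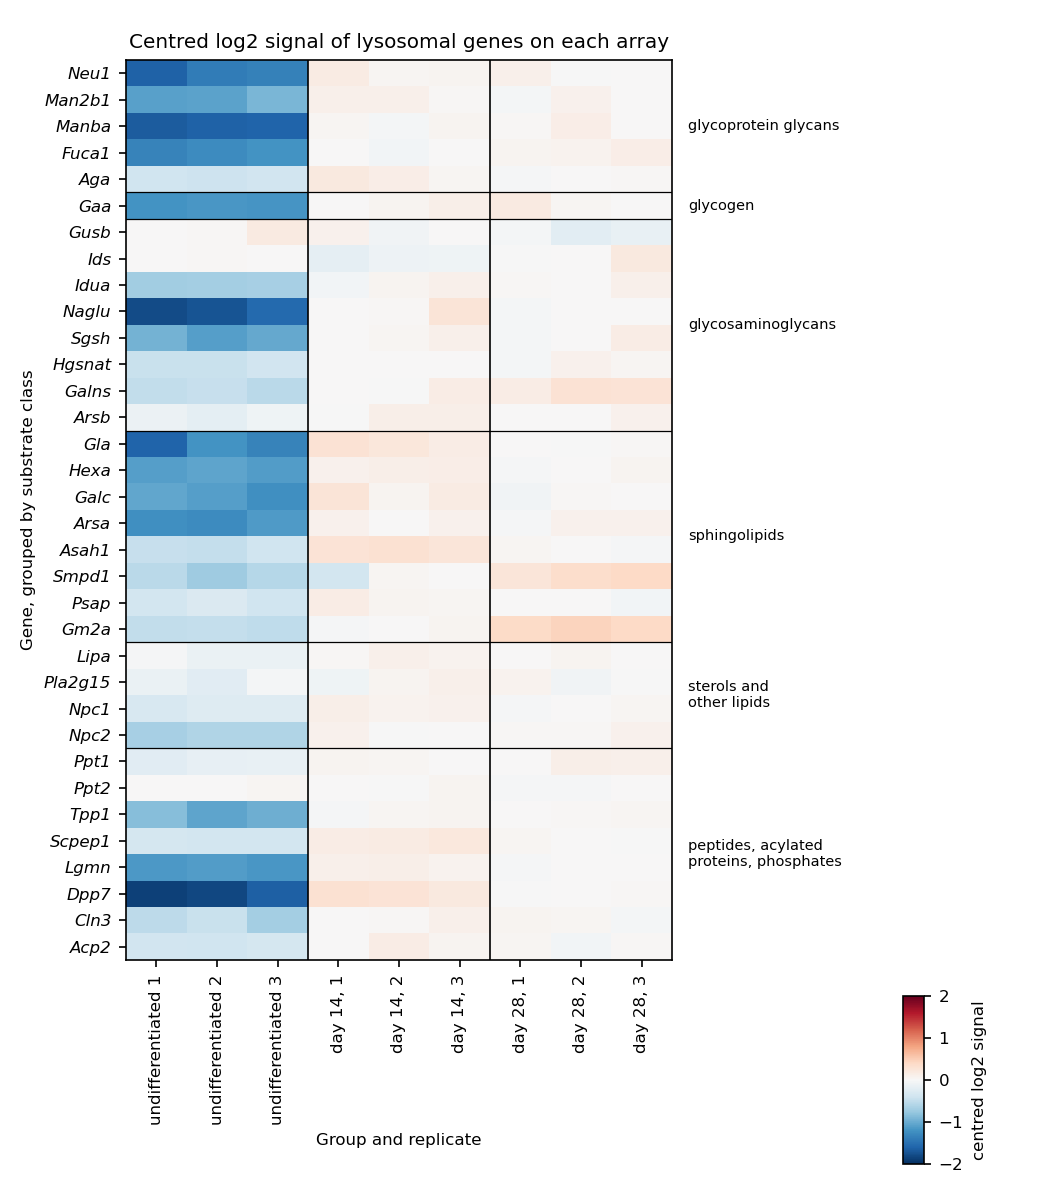
Centred log2 signal (colour) of the 34 measured genes in rows, grouped by substrate class, on the 9 arrays in columns: undifferentiated, day 14 and day 28, with 3 replicates each. The undifferentiated columns are blue, meaning lower, in nearly every row, and Gusb, Ids and Ppt2 are close to 0 in all 3 groups.

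Sequence upstream of these genes is shown because that E-box element is common there and because so many of them moved together. The table of promoters from RefSeq (GRCm38.p6) gives 250 bases before and 50 after the start of 30 of the 35 genes, 29 of them measured here. The E-box CACGTG and its longer form TCACGTG, which contains it, were searched on both strands. The longer form was present in 8 of the 29 measured genes (27.6%), against 5.13% of 16990 tested genes with a promoter and 4.29% of all 27025 promoters in the table. The shorter form was in the same 8 genes, against 9.19% of tested genes and 8.09% of all promoters. Those genes are Dpp7, Naglu, Gla, Gaa, Arsa, Lgmn, Sgsh and Cln3, and Glb1 has the longer form too. A match describes letters in this window. It shows neither a binding site nor a cause, and a window without a match shows nothing about the factor.

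Stretches with the match are shown for the 6 genes of these 8 that rose most by day 28, with the match in capitals, each 5′ to 3′ on the strand of its gene. Where both strands match, the capitals run 1 base further. The Dpp7 stretch is chr2:25356390-25356582 on the minus strand, with the match starting 74 bases before the gene's start, and that of Naglu is chr11:101069844-101070089 on the plus strand, with the match also 74 bases before the start. For Gaa it is chr11:119267713-119267962 on the plus strand, with the match 141 bases before the start, and for Arsa chr15:89477425-89477674 on the minus strand, with the match 17 bases before the start. These 4 lie outside every annotated protein-coding gene. The Gla stretch, chrX:134601215-134601244 on the minus strand, lies inside the annotated extent of Hnrnph2, with one match 228 bases before the start of Gla and another, not shown, at 195 bases. The Lgmn stretch, chr12:102439125-102439153 on the minus strand, lies within Lgmn, which has 2 starts in the table, with the match 50 bases before the start used.
Dpp7: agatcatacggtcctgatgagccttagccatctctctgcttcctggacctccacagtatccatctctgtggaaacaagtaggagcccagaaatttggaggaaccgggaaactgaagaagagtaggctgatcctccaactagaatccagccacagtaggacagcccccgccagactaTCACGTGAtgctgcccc
Naglu: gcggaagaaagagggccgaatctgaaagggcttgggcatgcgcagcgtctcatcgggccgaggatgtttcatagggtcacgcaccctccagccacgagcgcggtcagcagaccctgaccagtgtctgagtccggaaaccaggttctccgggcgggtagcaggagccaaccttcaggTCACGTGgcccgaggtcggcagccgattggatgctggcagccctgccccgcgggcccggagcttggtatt
Gaa: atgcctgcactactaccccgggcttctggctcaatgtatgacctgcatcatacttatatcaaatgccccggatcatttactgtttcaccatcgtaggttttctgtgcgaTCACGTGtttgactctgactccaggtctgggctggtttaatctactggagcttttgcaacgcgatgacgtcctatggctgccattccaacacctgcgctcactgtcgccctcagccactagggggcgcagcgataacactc
Arsa: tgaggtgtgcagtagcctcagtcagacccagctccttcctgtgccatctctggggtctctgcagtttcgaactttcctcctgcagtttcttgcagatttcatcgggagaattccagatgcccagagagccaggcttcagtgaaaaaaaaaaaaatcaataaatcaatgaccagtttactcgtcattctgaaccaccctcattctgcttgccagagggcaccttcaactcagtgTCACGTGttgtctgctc
Gla: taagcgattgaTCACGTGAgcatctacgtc
Lgmn: tggaatgtctgTCACGTGgtccattttat

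Genes with the match rose at both times in all 8 cases. Their median log2 difference was 1.25 at day 14 and 1.25 at day 28, with a range of 0.56 (Cln3) to 1.79 (Dpp7) at day 28. Of the 21 measured genes with a promoter and no match, 17 rose at day 14, with a median of 0.50, and 16 rose and 1 fell at day 28, with a median of 0.67. The 2 sets overlapped widely, since Manba, Neu1 and Fuca1 have no match in this window and rose by 1.68, 1.49 and 1.35 at day 28. Over all tested genes, 35.2% of those with the longer match rose at day 28, against 19.8% of those without, and at day 14 34.2% rose, against 17.8%. These shares are descriptions, and base composition was not matched.

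**Figure D2:**
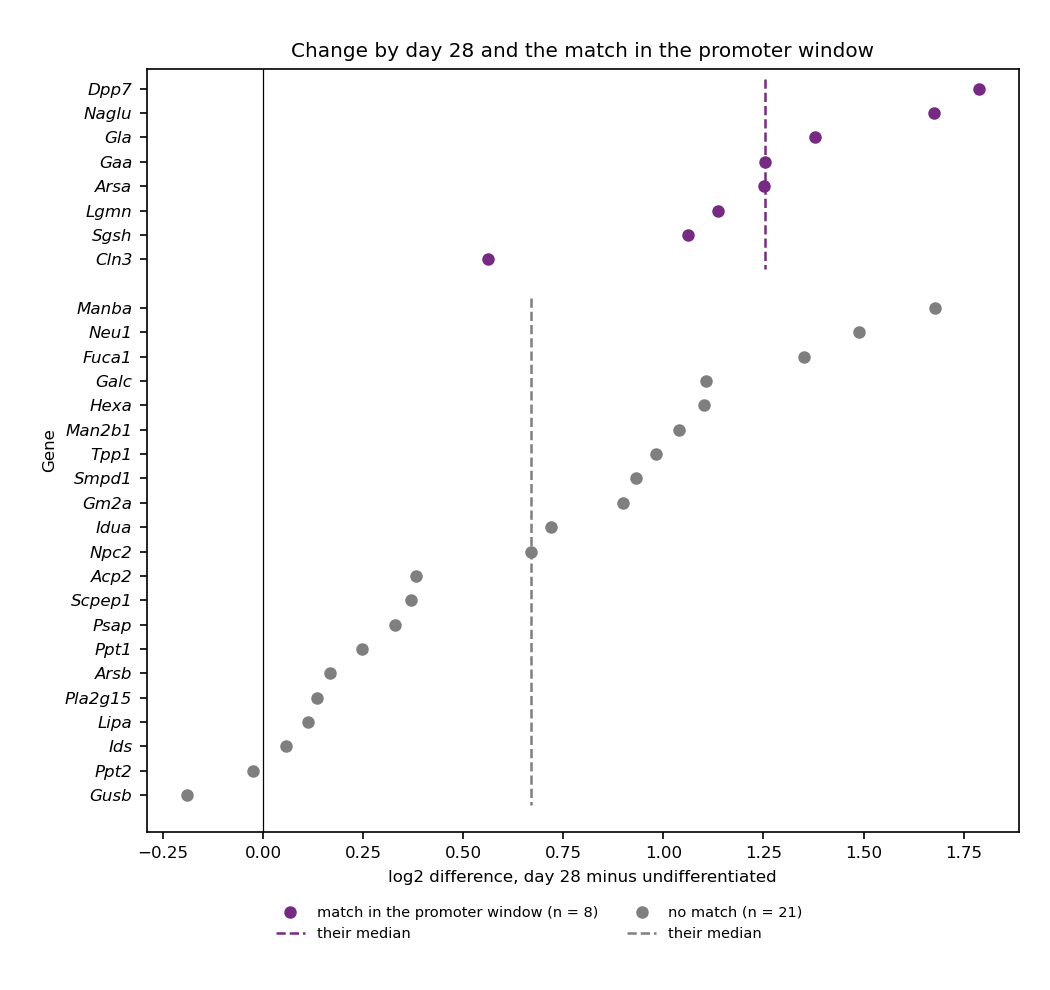
Log2 difference of day 28 minus undifferentiated (horizontal axis) for the 29 measured genes with a promoter in the table, split by the TCACGTG match; dashed lines mark the medians. The 8 genes with a match lie between 0.56 and 1.79 with a median of 1.25, and the 21 without lie between -0.19 and 1.68 with a median of 0.67.

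Enzymes that strip glycoprotein glycans rose in all 5 cases at both times, with a median log2 difference of 1.25 at day 14 and 1.35 at day 28. Manba, the beta-mannosidase, stood at -1.66, -1.62 and -1.60 on the undifferentiated arrays, at 0.04, -0.03 and 0.06 at day 14 and at 0.02, 0.13 and 0 at day 28. The induced arrays lay well above the others and differed little among themselves. Manba was 3.13-fold higher at day 14 (log2 1.65, SE 0.05, limma adjusted p = 1.65e-09) and 3.20-fold higher at day 28 (log2 1.68, SE 0.05, limma adjusted p = 9.24e-10). Neu1, the sialidase that removes terminal sialic acids, stood at -1.62, -1.40 and -1.35 on the undifferentiated arrays, at 0.16, 0.04 and 0.06 at day 14 and at 0.10, -0.02 and 0 at day 28. It was 2.92-fold higher at day 14 and 2.81-fold higher at day 28, with no overlap between induced and undifferentiated arrays.

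Fuca1, the fucosidase, rose 2.38-fold at day 14 and 2.55-fold at day 28 relative to undifferentiated cells. Man2b1, the lysosomal alpha-mannosidase, rose 2.15-fold and 2.05-fold. Aga, which cuts the bond between asparagine and the first sugar, had the smallest rise of this class, 1.43-fold at day 14 (log2 0.52, SE 0.05, limma adjusted p = 7.37e-06) and 1.32-fold at day 28 (log2 0.40, SE 0.05, limma adjusted p = 4.41e-05). Gaa, the acid alpha-glucosidase that frees glucose from glycogen in the lysosome, stood at -1.20, -1.16 and -1.19 on the undifferentiated arrays, at 0, 0.06 and 0.11 at day 14 and at 0.17, 0.04 and 0 at day 28. Its rise was 2.36-fold at day 14 (log2 1.24, SE 0.05, limma adjusted p = 2.58e-08) and 2.38-fold at day 28 (log2 1.25, SE 0.05, limma adjusted p = 1.72e-08).

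Glycosaminoglycans, the long sugar chains of proteoglycans, are taken apart in steps, and the genes of these steps did not move alike. Of the 8 genes, 6 rose at both times, with class medians of 0.49 at day 14 and 0.59 at day 28, while Ids and Gusb did not rise. Naglu, the N-acetylglucosaminidase of heparan sulfate, stood at -1.78, -1.72 and -1.56 on the undifferentiated arrays, at 0.0048, 0.03 and 0.25 at day 14 and at -0.05, 0.01 and 0 at day 28. All induced arrays lay far above the undifferentiated ones, and Naglu was 3.44-fold higher at day 14 (log2 1.78, SE 0.07, limma adjusted p = 2.34e-08) and 3.20-fold higher at day 28 (log2 1.68, SE 0.07, limma adjusted p = 2.67e-08). Sgsh, the sulfamidase that acts on the same chain, rose 2.10-fold at day 14 and 2.09-fold at day 28. Idua, the iduronidase of heparan and dermatan sulfate, rose 1.64-fold at both times. Hgsnat, the membrane enzyme that acetylates the glucosamine ends before Naglu can act, rose 1.35-fold and 1.37-fold.

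Ids, the sulfatase that removes sulfate from iduronic acid, stood at 0.0054, 0.02 and 0 on the undifferentiated arrays, at -0.17, -0.11 and -0.08 at day 14 and at -0.0032, 0.01 and 0.19 at day 28. Its day-14 arrays all lay below the undifferentiated ones, yet the difference of -0.13 did not pass the test (95% interval -0.25 to -0.0022, limma adjusted p = 0.114), and it was 0.058 at day 28 (95% interval -0.067 to 0.18, limma adjusted p = 0.472). In a fit of only the groups compared, the day-14 difference of Ids was called (limma adjusted p = 0.0386), as it was without day-28 replicate 3 (0.0327). Gusb, the beta-glucuronidase, stood at 0.0012, 0.02 and 0.17 on the undifferentiated arrays, at 0.09, -0.07 and 0 at day 14 and at -0.03, -0.21 and -0.14 at day 28. It was at -0.06 at day 14 (limma adjusted p = 0.603) and fell by 0.19 at day 28 (SE 0.07, limma adjusted p = 0.0408). That call was lost without undifferentiated replicate 2 (0.0525) or 3 (0.144), day-14 replicate 3 (0.0587), or day-28 replicate 2 (0.138) or 3 (0.0954), after quantile normalization again (0.103), and in a fit of only the groups compared (0.0602).

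Galns, the sulfatase of keratan sulfate, rose 1.46-fold at day 14 and 1.66-fold at day 28, and Arsb, the sulfatase of dermatan sulfate, rose 1.16-fold and 1.12-fold. The call of Arsb at day 28 (log2 0.17, limma adjusted p = 0.0227) was lost without undifferentiated replicate 2 (0.0813) or day-28 replicate 3 (0.0777), and after quantile normalization again (0.364). Of its 2 probe sets, 17289181 gave 0.27 at day 14 and 0.29 at day 28, and 17295032 gave 0.15 and 0.043, with limma adjusted p-values of 0.194 and 0.731 for the second. The 5 sulfatases of the list span 2 classes: Arsa, Sgsh, Galns and Arsb rose at both times and Ids at neither. Sumf1, which encodes their shared activating enzyme, rose by 0.57 at day 14 (SE 0.06, limma adjusted p = 1.75e-05) and by 0.47 at day 28 (SE 0.06, limma adjusted p = 7.19e-05).

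**Figure D3:**
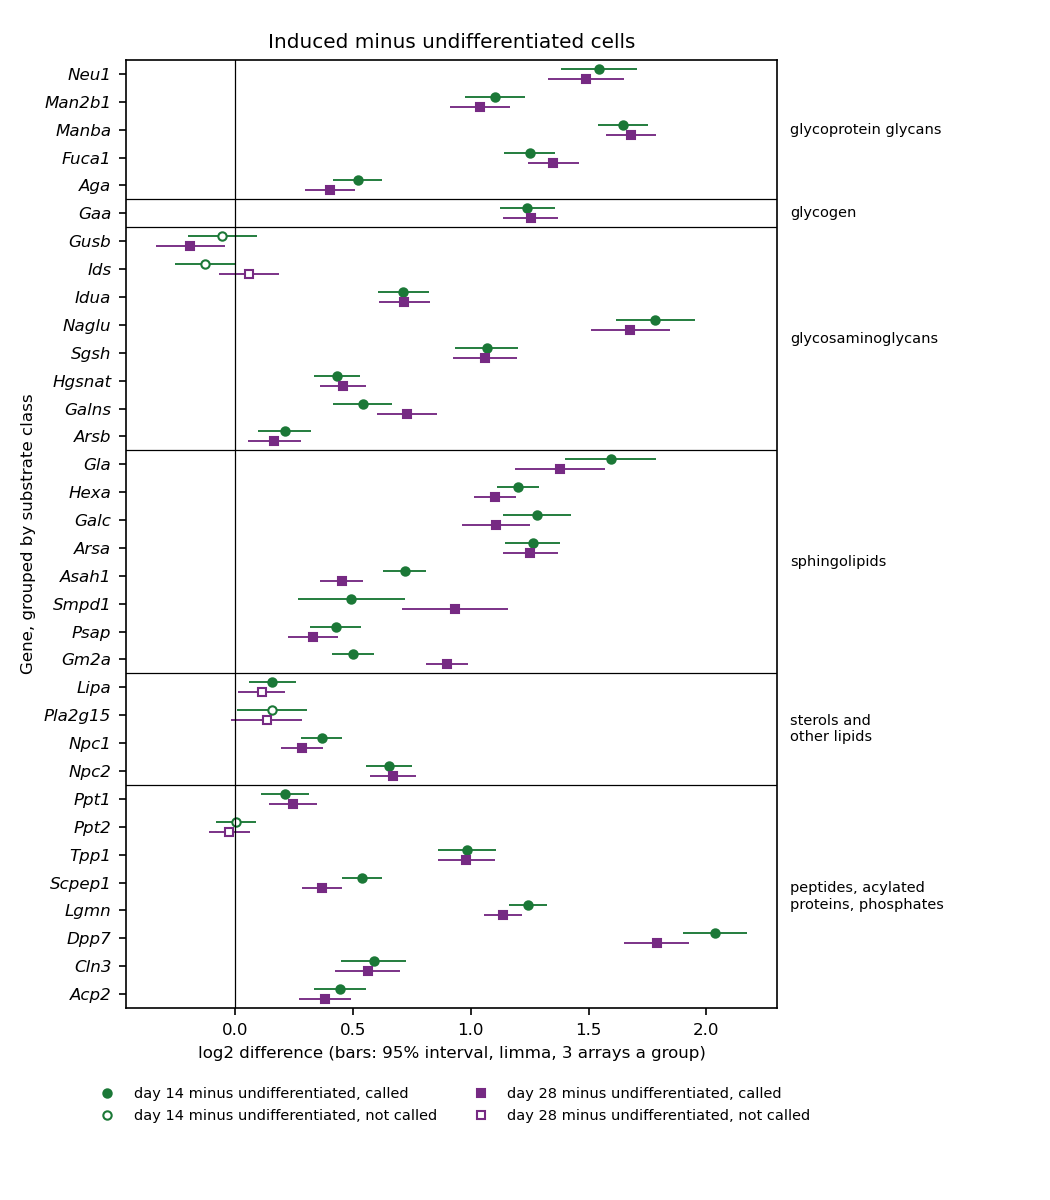
Log2 difference of day 14 (circles) and day 28 (squares) minus undifferentiated for each of the 34 genes, with 95% intervals from limma on 3 arrays a group; filled symbols passed an adjusted p under 0.05. Values run from -0.19 for Gusb at day 28 to 2.04 for Dpp7 at day 14, and Gusb, Ids, Lipa, Pla2g15 and Ppt2 have an open symbol at 1 or both times.

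All 8 measured genes of sphingolipid breakdown rose at both times, with medians of 0.96 at day 14 and 1.02 at day 28. Gla, the alpha-galactosidase whose loss causes Fabry disease, stood at -1.60, -1.20 and -1.33 on the undifferentiated arrays, at 0.28, 0.22 and 0.15 at day 14 and at 0, -0.0052 and 0.02 at day 28. It was 3.02-fold higher at day 14 (log2 1.59, SE 0.09, limma adjusted p = 1.51e-07) and 2.60-fold higher at day 28 (log2 1.38, SE 0.09, limma adjusted p = 3.51e-07). Hexa, the alpha subunit of the hexosaminidase that acts on GM2 ganglioside, rose 2.30-fold and 2.15-fold. Galc, which cleaves galactosylceramide, rose 2.43-fold and 2.15-fold, and Arsa, the sulfatase of sulfatide, rose 2.40-fold and 2.38-fold. For Hexa, Galc and Arsa, no induced array reached down to an undifferentiated one.

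The other 4 genes of this class had smaller differences at day 14. Gm2a, the activator protein that presents GM2 ganglioside to hexosaminidase, stood at -0.49, -0.47 and -0.51 on the undifferentiated arrays, at -0.03, 0 and 0.05 at day 14 and at 0.38, 0.44 and 0.40 at day 28. The 3 groups did not overlap, and Gm2a was 1.41-fold above undifferentiated cells at day 14 and 1.86-fold at day 28. Psap, the precursor of the saposins that help several of these enzymes reach their lipids, rose 1.34-fold at day 14 (limma adjusted p = 4.08e-05) and 1.26-fold at day 28 (limma adjusted p = 0.000232). Asah1, the acid ceramidase, rose 1.65-fold at day 14 and 1.37-fold at day 28.

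Smpd1, the acid sphingomyelinase, stood at -0.53, -0.71 and -0.57 on the undifferentiated arrays, at -0.37, 0.04 and 0 at day 14 and at 0.24, 0.35 and 0.40 at day 28. Day-14 replicate 1 lay apart from the other day-14 arrays and nearest to the undifferentiated ones. Smpd1 rose 1.41-fold at day 14 (log2 0.49, SE 0.10, limma adjusted p = 0.00278) and 1.91-fold at day 28 (log2 0.93, SE 0.10, limma adjusted p = 2.57e-05). Its 2 probe sets differed at day 14: 17481388 gave a log2 difference of 0.75 (limma adjusted p = 1.06e-06) and 17494507 gave 0.24 (limma adjusted p = 0.345). On the second, day-14 replicate 1 stood at -0.63 beside 0.04 and 0. At day 28 the probe sets gave 0.94 and 0.92. The day-14 call was also lost after quantile normalization again, at 0.15 (limma adjusted p = 0.626).

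Genes of sterol and other lipid handling had the smallest medians of the classes, 0.26 at day 14 and 0.21 at day 28. Of the 4, 3 rose at day 14 and 2 at day 28. Npc2, the soluble cholesterol carrier, stood at -0.67, -0.60 and -0.60 on the undifferentiated arrays, at 0.09, -0.00048 and 0 at day 14 and at 0.02, 0.03 and 0.09 at day 28. It rose 1.57-fold and 1.59-fold. Npc1, the membrane transporter that takes cholesterol from Npc2, rose 1.29-fold at day 14 and 1.22-fold at day 28. Its 2 probe sets disagreed, since 17352731 gave 0.67 and 0.50 and 17348489 gave 0.062 (limma adjusted p = 0.419) and 0.073 (limma adjusted p = 0.297).

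Lipa, the acid lipase of cholesteryl esters and triglycerides, rose 1.12-fold at day 14 (log2 0.16, SE 0.04, limma adjusted p = 0.0181). That call was lost without undifferentiated replicate 2 (0.0642) or 3 (0.0600), or without day-14 replicate 2 (0.0708) or 3 (0.0582). At day 28 Lipa was at 0.11 (95% interval 0.012 to 0.21, limma adjusted p = 0.0736), and without undifferentiated replicate 1 it was at 0.15 and was called (0.0302). Pla2g15, a phospholipase of the lysosome, was at 0.16 at day 14 (95% interval 0.0065 to 0.31, limma adjusted p = 0.104) and 0.13 at day 28 (95% interval -0.016 to 0.28, limma adjusted p = 0.15). Its probe set 17505060 gave 0.33 and 0.23, both called, and 17512654 gave -0.016 and 0.041, neither called. Without day-14 replicate 1 the day-14 difference of Pla2g15 was 0.21 and was called (0.0438).

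Of the 8 genes that act on peptides, acylated proteins and phosphate esters or that belong with them, 7 rose at both times. Dpp7, a peptidase that removes dipeptides after proline, stood at -1.87, -1.82 and -1.64 on the undifferentiated arrays, at 0.31, 0.27 and 0.19 at day 14 and at -0.0025, 0 and 0.03 at day 28. It had the largest difference of the 34 genes at both times, 4.10-fold at day 14 (log2 2.04, SE 0.06, limma adjusted p = 2.15e-09) and 3.45-fold at day 28 (log2 1.79, SE 0.06, limma adjusted p = 3.68e-09). Lgmn, the asparaginyl endopeptidase that also processes cathepsins, stood at -1.14, -1.12 and -1.16 on the undifferentiated arrays, at 0.10, 0.12 and 0.08 at day 14 and at -0.02, 0.0016 and 0 at day 28. It rose 2.37-fold and 2.20-fold.

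Tpp1, the tripeptidyl peptidase lost in a form of Batten disease, rose 1.98-fold at day 14 and 1.97-fold at day 28. Cln3, a lysosomal membrane protein lost in another form, rose by 0.59 and 0.56 on the log2 scale. Scpep1, a serine carboxypeptidase, rose 1.45-fold and 1.29-fold, and Acp2, the lysosomal acid phosphatase, rose 1.36-fold and 1.30-fold, with the second call lost after quantile normalization again (limma adjusted p = 0.0546). The 2 thioesterases that remove fatty acids from their substrates differed. Ppt1, which acts on palmitoylated proteins, rose 1.16-fold at day 14 (log2 0.21, SE 0.05, limma adjusted p = 0.00367) and 1.19-fold at day 28 (log2 0.25, SE 0.05, limma adjusted p = 0.00121). Ppt2 was at 0.0032 at day 14 (95% interval -0.082 to 0.088, limma adjusted p = 0.97) and at -0.024 at day 28 (95% interval -0.11 to 0.061, limma adjusted p = 0.677), and its arrays overlapped in all 3 groups.

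Most of these genes did not pass the test between day 28 and day 14. At day 28, 2 of the 34 rose relative to day 14 and 3 fell, where 2.72% of all genes rose, 4.67% fell and 7.39% changed in either direction. The median log2 difference was -0.036. After quantile normalization again 11 genes were called, 3 higher and 8 lower, with a median of -0.090, and that setting called 9.57% of all genes. It also stretched the day-14 arrays, whose centred values spread least, and whether its further calls come from that was not tested. Leaving out 1 array at a time gave 2 to 6 calls, with 2 without day-28 replicate 2 or 3 and 3 without day-14 replicate 1 or 2. These smaller fits also called fewer of all genes, 4.47% to 7.09%. Day-28 arrays lay above all day-14 arrays in 5 genes, against 10.7% of all genes, and below them in 10, against 13.8%, with 24.4% in either direction. The 2 genes that rose and 3 that fell in the first count belong to sphingolipid breakdown or to the peptidases. Alternatives other than that normalization also called genes of other classes. Npc1, of sterol handling, was called with its probe set of largest variance (-0.18, limma adjusted p = 0.0271), while its other probe set gave 0.011 (0.931). Galns, of glycosaminoglycan breakdown, was called without day-14 replicate 3 (limma adjusted p = 0.0457) or day-28 replicate 1 (0.0486).

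Gm2a rose 1.32-fold at day 28 relative to day 14 (log2 0.40, SE 0.04, limma adjusted p = 0.000229), with 0.38, 0.44 and 0.40 on the day-28 arrays, against -0.03, 0 and 0.05 on the day-14 arrays. Smpd1 rose 1.36-fold (log2 0.44, SE 0.10, limma adjusted p = 0.0281), and its call was lost without day-28 replicate 2 (0.0838) or 3 (0.0918), and in a fit of only the groups compared (0.0677). Its probe set 17481388 gave 0.19 (limma adjusted p = 0.0532) and 17494507, on which day-14 replicate 1 lay low, gave 0.69 (limma adjusted p = 0.037). Asah1 fell by 0.27 (SE 0.04, limma adjusted p = 0.00354), with 0.04, 0 and -0.02 on the day-28 arrays, against 0.27, 0.31 and 0.24 on the day-14 arrays. The calls of Gm2a and Asah1 held whichever of the 9 arrays was left out.

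Both peptidases that fell stayed above undifferentiated cells. Scpep1 fell by 0.17 (SE 0.04, limma adjusted p = 0.0237), with 0.03, 0 and -0.0081 on the day-28 arrays, against 0.16, 0.16 and 0.22 on the day-14 arrays. Its call was lost without any 1 of the 3 day-14 arrays or without day-28 replicate 2 or 3, with adjusted p-values up to 0.0921. Dpp7 fell by 0.25 (SE 0.06, limma adjusted p = 0.0367), with -0.0025, 0 and 0.03 on the day-28 arrays, against 0.31, 0.27 and 0.19 on the day-14 arrays. Its call was lost without any 1 of the 6 induced arrays or without undifferentiated replicate 2, with adjusted p-values up to 0.137. Leaving out 1 array also lowered the share of all genes called, from 7.39% to between 4.47% and 7.09%. In both Scpep1 and Dpp7 the day-28 arrays nonetheless lay below all day-14 arrays. Gla, Hexa, Galc and Lgmn also lay lower on every day-28 array than on every day-14 array, at -0.21, -0.10, -0.17 and -0.10, and did not pass the test (limma adjusted p = 0.192, 0.199, 0.157 and 0.128). So did Aga at -0.12 (0.186), Psap at -0.095 (0.306) and Npc1 at -0.083 (0.274), which did not pass either. After quantile normalization again Gla was called at -0.47 (0.00334), Hexa at -0.20 (0.0411) and Galc at -0.35 (0.0476). Lgmn at -0.19 (0.0258) and Npc1 at -0.17 (0.0280) were called there too. Aga and Psap were called in none of the alternatives. Gla was also called in a fit of only the groups compared (0.0338) and without undifferentiated replicate 1 (0.0402). Galns, Ids and Fuca1 lay higher on every day-28 array than on every day-14 array, at 0.19, 0.19 and 0.10. They did not pass the test either (limma adjusted p = 0.0814, 0.0842 and 0.284). Galns was called without day-14 replicate 3 (0.0457) or day-28 replicate 1 (0.0486). Ids was called after quantile normalization again, at 0.28 (0.0395).

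**Figure D4:**
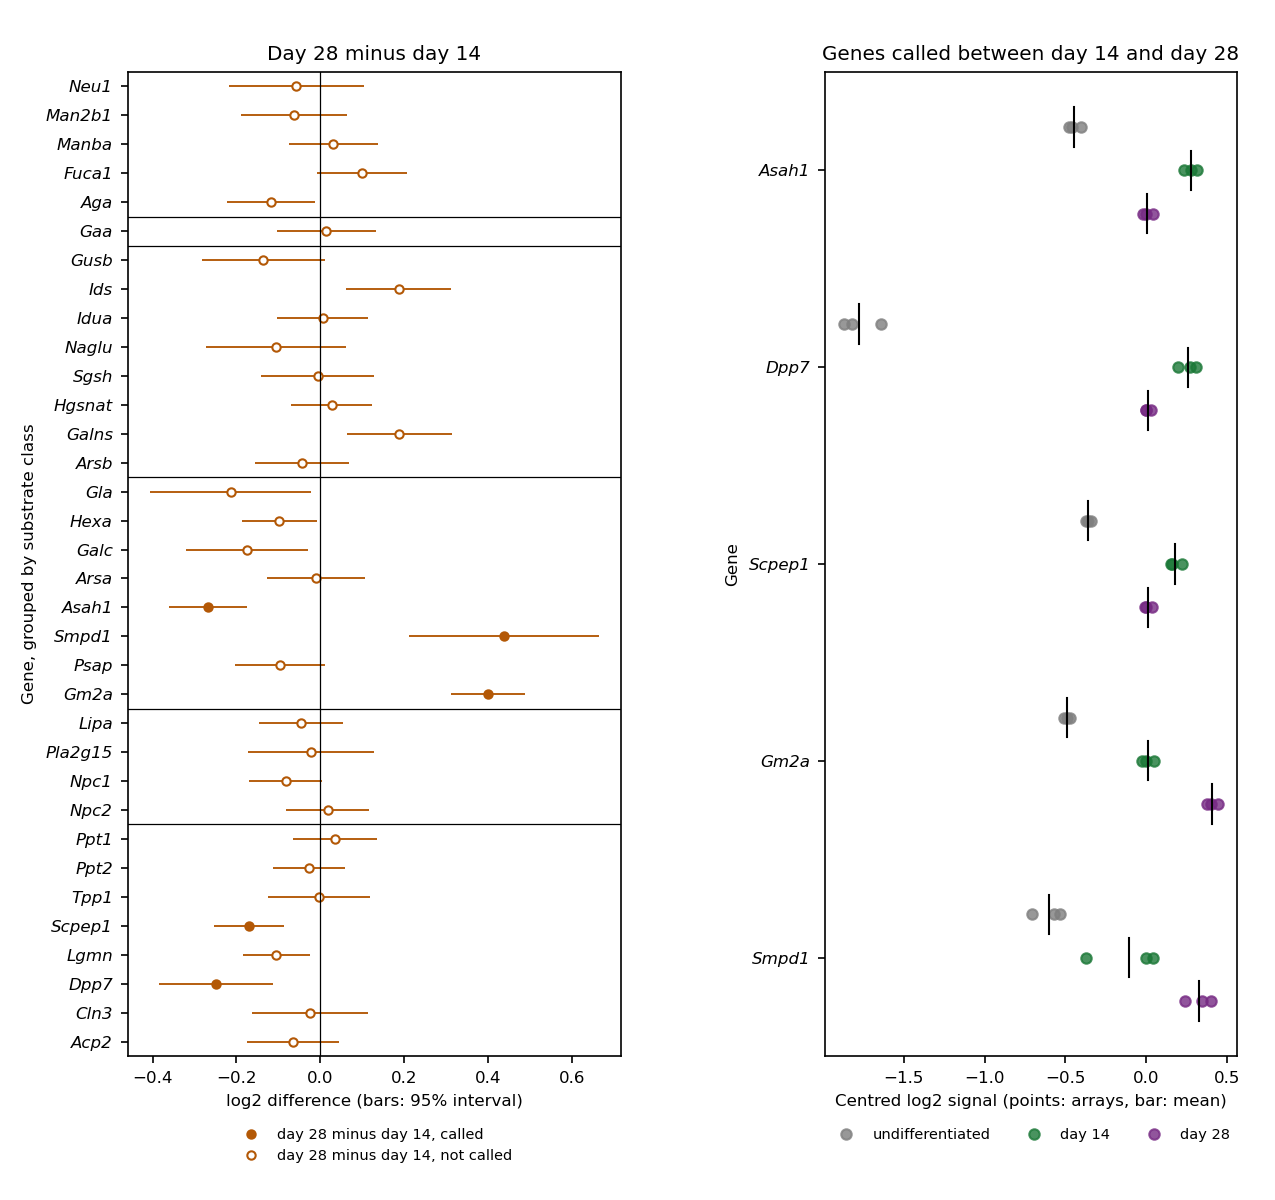
Left, log2 difference of day 28 minus day 14 for the 34 genes with 95% intervals, filled where called; right, centred log2 signal of the 5 called genes on each array, with bars at the group means. Gm2a and Smpd1 lie to the right of 0 at 0.40 and 0.44, Asah1, Dpp7 and Scpep1 lie to the left, and for Smpd1 day-14 replicate 1 stands apart at -0.37.

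Genes that work around these enzymes were read from lists of the rest of the pathway. Over all genes, 18.2% rose and 17.5% fell at day 14, and 20.4% rose and 19.5% fell at day 28. Of 17 other lysosomal hydrolases measured, 13 rose and 1 fell at day 14, and 12 rose and 1 fell at day 28, with medians of 0.64 and 0.68. Fuca2, a second fucosidase that the list placed among them, rose by 2.02 and 1.95 on the log2 scale. Where its product acts was not tested. Naaa, an acid amidase of lipid amides, rose by 1.09 and 1.27. Ctsa, the protective protein that holds Neu1 and the beta-galactosidase in a complex, rose by 0.91 at day 14 (SE 0.04, limma adjusted p = 2.81e-08) and 0.88 at day 28 (SE 0.04, limma adjusted p = 2.75e-08).

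Of 12 genes of enzyme maturation and sorting, 9 rose and 1 fell at day 14, and 10 rose and 1 fell at day 28. Among all genes, 18.2% rose and 17.5% fell at day 14, and 20.4% rose and 19.5% fell at day 28. Gnptg and Gnptab, whose products form the enzyme that starts the mannose 6-phosphate tag, rose by 1.06 and 0.35 at day 14 and by 1.11 and 0.46 at day 28. Scarb2, a lysosomal membrane protein that carries cargo from the endoplasmic reticulum, rose by 0.94 and 1.09. M6pr, which encodes the smaller mannose 6-phosphate receptor, went the other way, with differences of -0.33 at day 14 (SE 0.06, limma adjusted p = 0.000937) and -0.41 at day 28 (SE 0.06, limma adjusted p = 0.000152).

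Other parts of the lysosome also rose, where 18.2% of all genes rose at day 14 and 20.4% at day 28. The shares of all genes that fell were 17.5% and 19.5%. Lysosomal membrane genes rose in 16 of 19 cases at day 14 and 15 at day 28, led by the cystine exporter gene Ctns at 2.02 and 1.74. Vacuolar ATPase genes, which acidify the lysosome, rose in 13 of 17 at both times and 1 fell. Cathepsins rose in 8 of 12 at both times, with 1 lower at day 14 and 2 at day 28, and Ctsh at 2.48 and 2.92 was among the largest. Between day 14 and day 28, 5 of the 19 membrane genes fell, where 4.67% of all genes did.

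The transcription factor Tfeb was at 0.11 at day 14 (limma adjusted p = 0.251) and 0.16 at day 28 (limma adjusted p = 0.074), and was not called. Tfeb stood at -0.12, -0.04 and -0.10 on the undifferentiated arrays, at -0.0038, 0.08 and 0 at day 14 and at 0.24, 0 and 0 at day 28. Its induced arrays thus lay above the undifferentiated ones, as they did in 22.9% of all genes at day 14 and 24.2% at day 28. Of its 14 measured relatives and regulators, itself included, 8 rose and 1 fell at each time. Among all genes, 18.2% rose and 17.5% fell at day 14, and 20.4% rose and 19.5% fell at day 28. Of the same family, Tfe3 (-0.048, limma adjusted p = 0.640) and Tfec (0.032, 0.821) were not called at day 14. On the day-28 arrays Tfe3 stood at 0.02, 0.05 and 0.20, against 0.09, -0.09 and -0.01 on the undifferentiated ones. Tfec stood at 0.07, 0.0068 and -0.07, against 0.05, -0.02 and -0.22. Mitf, a factor of the same family, rose by 1.45 and 1.53, and Flcn and Fnip2, whose products act together upstream of these factors, rose by 1.01 and 1.27 at day 14 and by 0.94 and 1.22 at day 28. Synthesis genes were called in both directions, where 18.2% of all genes rose and 17.5% fell at day 14 and 20.4% rose and 19.5% fell at day 28. Of 19 sphingolipid synthesis genes, 6 rose and 3 fell at day 14 and 7 rose and 4 fell at day 28, and of 20 glycosaminoglycan synthesis genes 11 rose and 5 fell at day 14 and 12 rose and 4 fell at day 28.

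**Figure D5:**
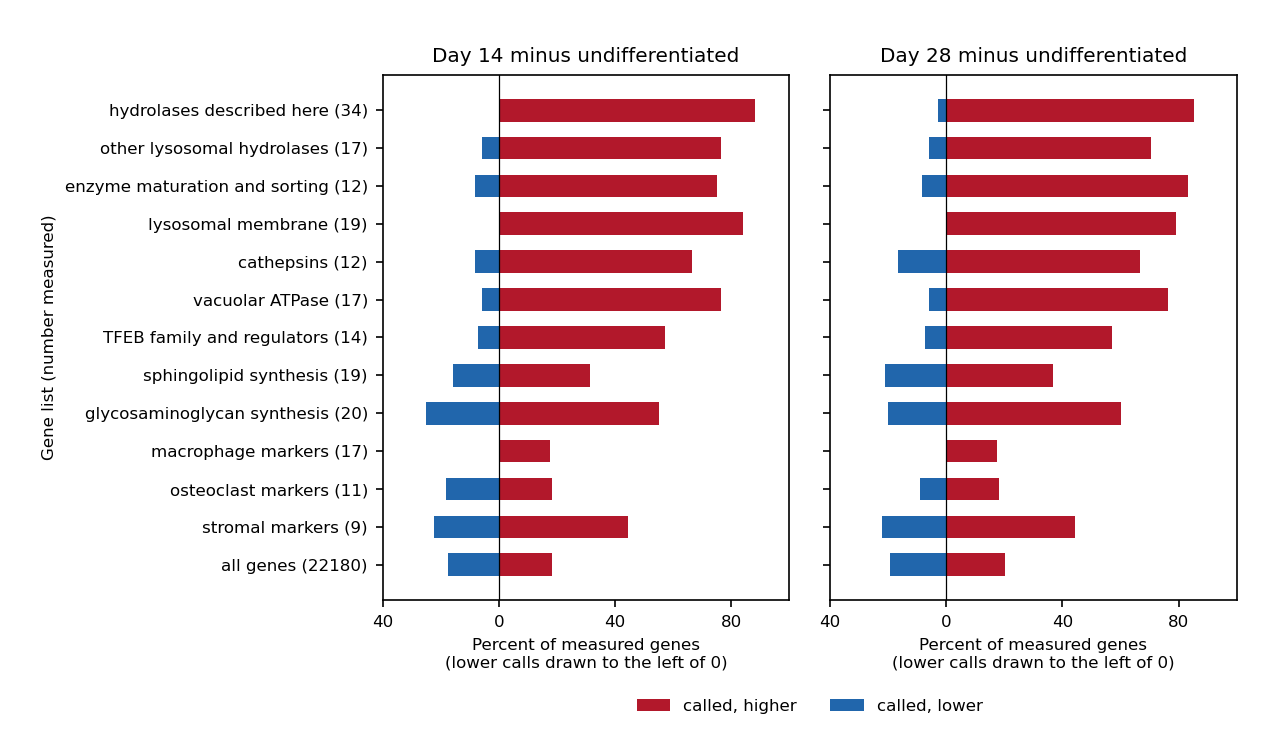
Percent of measured genes called higher (red, to the right of 0) and lower (blue, to the left) in each list, at day 14 and at day 28, each minus undifferentiated; the number measured stands in brackets. The top bars are the 34 genes described here, with 30 of 34 called higher at day 14 and 29 of 34 at day 28, and the bottom bar gives all 22180 genes.

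Macrophages and osteoclasts are rich in lysosomes, so their markers were read beside these genes. Of 17 macrophage markers, 3 rose at each time, a share near that of all genes (18.2% at day 14 and 20.4% at day 28). They were Cd14 at 2.56 and 2.74, Csf1r at 1.81 and 2.10 and Cd68 at 0.30 and 0.75 for day 14 and day 28. The other 14 were not called at either time. Among them, the leukocyte and macrophage genes Ptprc, Adgre1, Itgam, Lyz2 and Tyrobp had differences between -0.16 and 0.04. Others stood higher: Aif1 was at 0.04, 0.06 and 0.28 at day 14, against -0.08, -0.01 and -0.03 on the undifferentiated arrays. C1qb was at 0.41, 0.0084 and 0 at day 28, against 0.01, -0.07 and -0.30. The median difference of the 17 was 0.0077 at day 14 and 0.027 at day 28. The mean of the 17 centred values was between -0.29 and -0.25 on the undifferentiated arrays, between -0.019 and 0.0085 at day 14 and between 0.036 and 0.11 at day 28. Of 11 osteoclast markers, 2 rose and 2 fell at day 14 and 2 rose and 1 fell at day 28. Over all genes, 18.2% rose and 17.5% fell at day 14, and 20.4% rose and 19.5% fell at day 28.

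Ctsk was at 2.11 and 3.32 and Atp6v0d2 at 1.51 and 2.10 for day 14 and day 28, while Itgb3 was at -0.77 and -1.16 and Acp5, Calcr, Ocstamp and Dcstamp were not called. The mean of the 11 centred values was between -0.28 and -0.22 on the undifferentiated arrays, between -0.013 and 0.0097 at day 14 and between 0.10 and 0.15 at day 28. Of 9 stromal markers 4 rose and 2 fell at each time. Nt5e rose most, by 2.21 and 2.70, while Cxcl12 was at -0.87 and -0.92 and Col1a1 at -0.26 and -0.39. Among all genes, 18.2% rose and 17.5% fell at day 14, and 20.4% rose and 19.5% fell at day 28. The part of other cell types, or of the fall in cell cycle genes, in the rise of lysosomal enzyme genes was not tested, and centred values cannot show whether a marker was at background.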

How the data were processed

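The authors made the deposited values with RMA, per the submitters' processing notes. The deposited values were taken as log2 because RMA works on that scale. Not given in the sources used here are the log base, software version, annotation and the step that centred each of the 33794 probe sets on a median of 0. Of these probe sets, 23521 list 1 gene, 1814 several and 8459 none. Those with 1 gene were averaged into 22180 genes. The 34 measured genes rest on 38 of them, 4 genes on 2 each. Exact zeros made up 15.2% to 28.1% of an array, and 873 genes, 0 of them described here, had 3 equal values in a group.

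Groups were compared with limma 3.58.1 in R 4.3.3 (lmFit and eBayes, 1 mean per group over 9 arrays, 6 residual and 3.81 prior degrees of freedom), with Benjamini-Hochberg adjustment over all 22180 genes and calls at an adjusted p under 0.05. Probe set p-values were adjusted over the 23521 one-gene probe sets. Steps were tested on simulated data. Genes and lists were chosen with earlier results of these data known, the 8 osteoblast genes included. All 35 genes may be named, with up to 4 called genes of largest change per other list and comparison, plus Sumf1, Gnptab, Tfeb and Ctsa. Some items are not reported here. Unchanged markers, the osteoblast genes and others outside that rule were named after their values were seen. Same-numbered deviations from group means correlated between -0.14 and 0.07 over 9 pairs, and differently numbered ones between -0.12 and 0.15 over 18 pairs. These values showed no pairing by replicate number, but so few arrays cannot exclude a weak one. Promoters came from RefSeq, GRCm38.p6, and protein sequences were not used here. The closing section gives the alternatives tried.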

Additional observations from a re-analysis of the deposited data

Results flagged for a closer look

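Of the genes whose change from undifferentiated cells was measured at both induced times, 5 differed between day 28 and day 14 by the test of that difference. They were Gm2a at 0.40, Smpd1 at 0.44, Asah1 at -0.27, Dpp7 at -0.25 and Scpep1 at -0.17 on the log2 scale, day 28 minus day 14.

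Probe sets that list several genes entered no comparison, and 2 of them name a gene described here. The probe set shared by Glb1 and Tmppe stood at 0.03 ± 0.03 at day 14, against -0.75 ± 0.05 in undifferentiated cells (SD, n = 3 each), a log2 difference of 0.78 (limma adjusted p = 5.64e-07 over all 33794 probe sets), and at 0.75 at day 28 minus undifferentiated (limma adjusted p = 5.54e-07). The probe set shared by Ddb2 and Acp2 gave 1.05 at day 14 minus undifferentiated (limma adjusted p = 2.59e-07) and 1.00 at day 28 (limma adjusted p = 2.82e-07), larger than the 0.45 and 0.38 of the probe set that lists Acp2 alone. Which gene of each pair these signals belong to was not tested.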

How the results depend on the processing

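Of the 34 genes, none with a call changed direction in any of the alternatives run. After quantile normalization again, the median log2 difference was 0.47 at day 14, 0.48 at day 28 and -0.090 for day 28 minus day 14, where 11 genes were called, 3 higher and 8 lower. Over all genes that setting called 5818, 6322 and 2123. It was run on centred values and made their unequal spread between groups equal. How far its changes come from that was not tested. A robust variance model and leaving out genes with 3 equal values in a group each gave 30, 30 and 5 calls at day 14, at day 28 and between day 28 and day 14, and a fit of only the groups compared gave 31, 29 and 5. With only genes of 1 probe set the medians were 0.72 and 0.81 at day 14 and day 28. At day 14 the median was 0.66 with the probe set of largest variance and 0.71 with several-gene probe sets kept. At an adjusted p under 0.01, 2 genes were called between day 28 and day 14 (813 of all genes). Against a 1.5-fold change, 14 were called at day 14, 16 at day 28 and 0 between them by limma (0 also at an unadjusted p under 0.05), with 1582, 2010 and 28 over all genes.

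With the replicate number as a block, 30 were called at day 14, 30 at day 28 and 3 between day 28 and day 14, where Scpep1 (limma adjusted p = 0.0587) and Dpp7 (0.0687) were lost. That setting called 35.4%, 39.3% and 6.27% of all genes. Leaving out 1 array at a time, calls numbered 29 to 31 at day 14, 28 to 31 at day 28 and 2 to 6 between day 28 and day 14, where they were 3 without day-14 replicate 1 or 2 and 2 without day-28 replicate 2 or 3. The medians ran from 0.60 to 0.65, from 0.70 to 0.75 and from -0.05 to -0.01. With 3 arrays a group, 1 clone and centred values, levels, small differences and other cultures lie beyond these data.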
